A study of Mus musculus with 8 samples.

Results

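Glutathione transferases and genes of the NRF2 response were followed in livers with and without a hepatocyte deletion of Zfp36l1. The members were chosen by symbol from the deposited count table of 25239 genes. All genes of the alpha, kappa, mu, omega, pi, theta and zeta transferase classes and the microsomal transferases were taken, which gave 25 genes, together with 16 named genes of glutathione supply, thioredoxin, peroxide removal and NRF2 control. All 41 members were in the table, and 37 passed the filter on low counts and were tested.

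The libraries came from the livers of adult male mice. The 4 control libraries carry the title label Zf36l1 fl/fl (loxP-flanked alleles, spelled so there) and the genotype label WT. The 4 knockout libraries are labelled Zfp36l1 fl/fl Alb-Cre+, so they add a Cre recombinase under the hepatocyte-active albumin promoter, and other liver cells are expected to keep the gene. Both groups thus carry the floxed alleles, only the knockout is labelled with Cre, and no alcohol or other agent is named for either group. Whether the libraries of a group come from separate mice is not stated, so the p-values below reflect only how these libraries vary, part of which may be technical.

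Total counts ranged from 104842873 to 140582588 per library. Zfp36l1 encodes an RNA-binding protein that promotes decay of mRNAs with AU-rich elements. The gene had 259 ± 47.9 CPM (counts scaled to the TMM-adjusted library total) in control and 65.1 ± 8.97 CPM in knockout libraries. The knockout mean was 25.1% of the control level (exact two-sided permutation p = 0.0286, the smallest that 70 assignments allow). The 6 hepatocyte markers, Alb foremost, summed to 73246 to 80030 CPM in control and 85599 to 95409 CPM in knockout libraries, without overlap. Alb carried this sum, the median log2 fold change of the 6 was −0.05, with Apoa1 (−0.25), Cps1 (−0.20) and Cyp2e1 (−0.12) below 0, and none passed the test (Alb adjusted p = 0.0856). The 12 macrophage and Kupffer cell markers summed to 168 to 228 CPM in control and 138 to 360.3 CPM in knockout libraries, and the 6 neutrophil markers to 0.1504 to 6.47 and 0.130 to 66.3 CPM. Knockout libraries 1 and 4 had the highest sums on both lists (290.2 and 360.3 CPM for macrophages, 66.3 and 27.1 CPM for neutrophils). The 7 cholangiocyte markers summed to 68.4 to 78.0 CPM in control and 49.0 to 61.0 CPM in knockout libraries, with 1 of 7 lower (Sox9). No tested macrophage, neutrophil, lymphocyte, endothelial, stellate or erythroid marker passed. In the fit with the replicate block, Lyve1 (endothelial, log2 fold change 0.72) and Ttr (hepatocyte, 0.41) passed as higher, with adjusted p of 0.0231 and 0.0351 in place of 0.0549 and 0.0643. Of the erythroid markers Hbb-bs, Hba-a1, Hbb-bt and Hba-a2 (haemoglobin) were listed at 0 in all libraries. The part of these cell types in the results below was not tested.

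NRF2, the product of Nfe2l2, is a transcription factor that KEAP1 holds in the cytoplasm and hands to the proteasome. Oxidants and electrophiles modify KEAP1, NRF2 then enters the nucleus, and with small MAF proteins it binds antioxidant response elements near genes for glutathione synthesis, thioredoxin recycling and conjugation. Glutathione transferases join glutathione to electrophilic compounds, and the liver, which handles most drugs and toxins, is among the tissues richest in them.

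Differences between the groups are given as log2 fold changes of knockout over control with a standard error (SE) or 95% interval. Levels are CPM after TMM scaling, as mean ± SD with n = 4 per group. Levels of different genes are compared only as CPM per kilobase of the deposited gene length. Each adjusted p, unless another tool is named, comes from the quasi-likelihood F-test of edgeR, adjusted by Benjamini-Hochberg across the 14861 genes tested, and a gene was called changed at an adjusted p under 0.05.

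In the liver without hepatocyte Zfp36l1, 2 of the 37 tested members rose and 0 fell. Among all tested genes 3.51% rose and 1.88% fell, 5.39% in all. With a block for the replicate number the members' count was again 2 and 0, beside 4.39%, 2.52% and 6.92% of all tested genes. Leaving out 1 library at a time gave 0 to 2 members higher, with 0 without control replicate 1 or 2 or knockout replicate 1 or 3. Srxn1 and Txnrd1, both of the thioredoxin and peroxiredoxin branch, were the members that rose. None of the 22 tested glutathione transferases passed. By unadjusted p under 0.05, 7 of 37 members differed (5 higher, 2 lower), against 21.5% of all tested genes. DESeq2 called 4 members higher (Gpx4, Gsta1, Srxn1 and Txnrd1) and 1 lower (Gstp3), or 5 of 37, where it called 11.9% of all genes with an adjusted p (6.97% higher, 4.97% lower). Limma-voom with quality weights called Srxn1 and Txnrd1 higher and Gstp3 lower, where it called 9.76% of all tested genes (5.6% higher, 4.16% lower). The median log2 fold change was 0.10 over the members and −0.01 over all tested genes, and 27 of the 37 members were above 0, against 48.4% of all tested genes. Without TMM, on total counts alone, the median of all genes shifted by −0.11. Under that scaling 15 members were above 0 and 22 below, where 32.4% of all tested genes were above 0. Srxn1 was then the member called higher, and Gstm4 and Gstp3 were called lower, beside 11.6% of all tested genes (2.64% higher, 9% lower). The same scaling changed the split of calls over all genes from 521 higher and 280 lower to 392 and 1338.

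**Figure D1:**
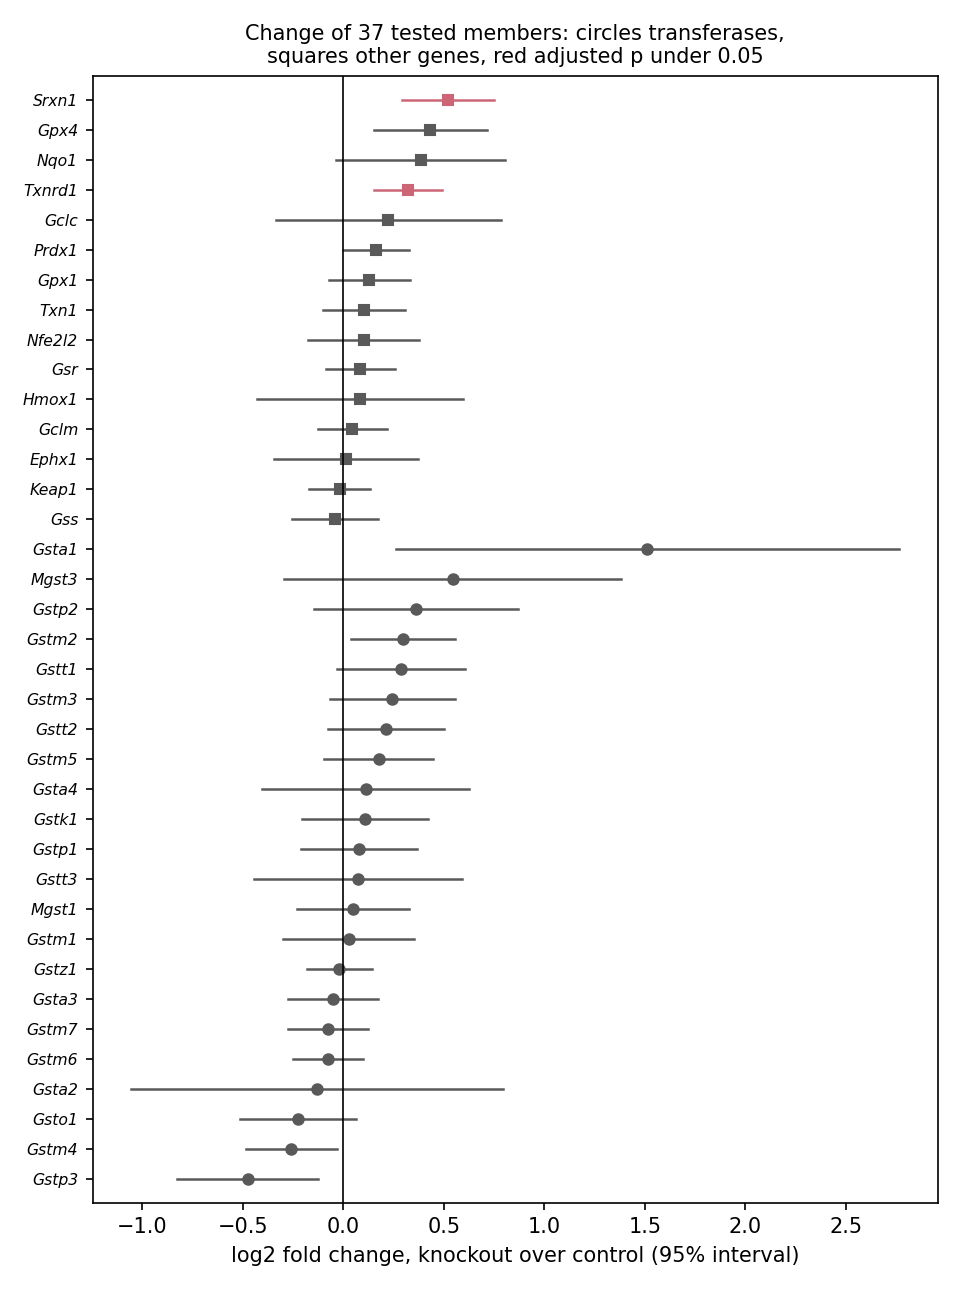
Log2 fold change of knockout over control (x axis) for the 37 tested members, with 95% intervals as lines, circles for transferases and squares for the other genes. Red marks the 2 genes with adjusted p under 0.05, Srxn1 at 0.52 and Txnrd1 at 0.32, and Gsta1 has the widest interval, from 0.26 to 2.76.

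The regulators came first. Nfe2l2 had 89.2, 70.1, 73.0 and 76.5 CPM in control libraries 1 to 4 and 98.6, 77.1, 88.4 and 67.0 CPM in knockout libraries 1 to 4. The groups overlapped, and knockout library 4 held the lowest value of all. The log2 fold change was 0.10 (95% interval −0.17 to 0.38, adjusted p = 0.678). Keap1 had 75.2, 79.0, 74.9 and 83.4 CPM in control and 79.0, 77.3, 81.2 and 71.2 CPM in knockout libraries. The ranges nearly coincided, with a log2 fold change of −0.02 (−0.17 to 0.13, adjusted p = 0.904). NRF2 is controlled mainly through its protein, which these RNA counts do not measure.

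Srxn1 encodes sulfiredoxin, the enzyme that repairs over-oxidised peroxiredoxins (ENSMUSG00000032802.8, chromosome 2, 152105516 to 152111376, plus strand, mm10). Control libraries 1 to 4 held 63.3, 59.3, 61.6 and 72.6 CPM. In the knockout, libraries 1 to 4 held 91.6, 109, 85.7 and 82.2 CPM. Every knockout value lay above every control value. The means were 64.2 ± 5.82 and 92.1 ± 11.8 CPM, a log2 fold change of 0.52 (SE 0.10, 95% interval 0.29 to 0.75, adjusted p = 0.0223). The call was lost when control replicate 1 (adjusted p = 0.0606) or 2 (0.0549), or knockout replicate 1 (0.0596) or 3 (0.0542), was left out.

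Txnrd1 encodes cytosolic thioredoxin reductase, which passes electrons from NADPH to thioredoxin (ENSMUSG00000020250.10, chromosome 10, 82833951 to 82897712, plus strand). Control libraries had 172, 196, 195 and 213 CPM, and knockout libraries had 249, 251, 231 and 239.6 CPM. The knockout values were again all above the controls and close to each other. The means of 194 ± 16.6 and 243 ± 8.94 CPM gave a log2 fold change of 0.32 (SE 0.08, 95% interval 0.15 to 0.49, adjusted p = 0.0403). The call rested on nearly the full set of libraries, since dropping a single library ended it in 7 of 8 cases, with adjusted p from 0.0529 without control replicate 3 to 0.115 without knockout replicate 1. It also went without control replicate 1 (0.0858) or 2 (0.0813) and knockout replicate 2 (0.102), 3 (0.0830) or 4 (0.0697). It was also lost under total counts alone (0.21, adjusted p = 0.0958).

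Neither gene shares a 75-base stretch of its longest transcript with a transcript of another gene in GENCODE M21, and no exon of another gene in the table overlaps them.

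The promoter windows of the 2 genes that rose are shown because NRF2 acts through elements of this kind. The core of the antioxidant response element, TGACNNNGC, was searched on both strands in the RefSeq windows (GRCm38.p6, the assembly of mm10) from 250 bases before to 50 after each gene's start. A variant with G in the fourth place, TGAGNNNGC, was added after the Srxn1 window had been read. Capitals mark either motif on either strand. The Srxn1 window is chr2:152105274-152105573, plus strand, and holds 1 match to the first and 2 to the second motif. Txnrd1 has 3 such windows and 1 of them holds a match, a single TGACNNNGC, at chr10:82858956-82859255, plus strand.
Srxn1: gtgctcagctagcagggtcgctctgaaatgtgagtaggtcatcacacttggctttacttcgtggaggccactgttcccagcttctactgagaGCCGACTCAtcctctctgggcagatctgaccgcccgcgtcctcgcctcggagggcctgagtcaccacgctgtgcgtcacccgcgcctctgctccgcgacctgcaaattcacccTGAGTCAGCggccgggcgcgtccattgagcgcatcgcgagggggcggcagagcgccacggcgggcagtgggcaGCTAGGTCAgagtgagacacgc
Txnrd1: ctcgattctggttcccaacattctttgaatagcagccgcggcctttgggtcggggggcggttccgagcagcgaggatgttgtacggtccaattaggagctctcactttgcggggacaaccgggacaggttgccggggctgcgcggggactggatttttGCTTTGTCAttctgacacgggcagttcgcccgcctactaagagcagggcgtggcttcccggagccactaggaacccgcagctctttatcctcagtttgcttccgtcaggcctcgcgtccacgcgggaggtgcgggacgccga

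TGACNNNGC occurred in 12.4% of all 32851 promoter windows, and in at least 1 window of 16.7% of the 11675 tested genes that have one. Of the 41 members 36 had a window, and 9 of these (25.0%) held the motif, namely Gclm, Gsta3, Gstm5, Gstm7, Mgst1, Nfe2l2, Prdx1, Srxn1 and Txnrd1. TGAGNNNGC occurred in 17.7% of all windows, in 22.7% of the tested genes and in 10 of the 36 members (27.8%). Prdx1, Gstm5 and Srxn1 held both. The 36 members include the untested Gstt4, Slc7a11, Mgst2 and Gsto2, of which Gstt4 and Slc7a11 held TGAGNNNGC. Short motifs of this kind occur often, and a match is a description of the letters only. Bases outside these windows were not searched, so a member without a match, such as Nqo1, may hold the motif elsewhere. Gclc, Gsr, Gsta4, Gstt2 and Hmox1 had no window.

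The other members of the thioredoxin and peroxide branch had smaller or less even differences. Gpx4, the glutathione peroxidase that reduces lipid hydroperoxides in membranes, had 103, 80.7, 75.2 and 103 CPM in control and 123, 140.99, 119.6 and 106 CPM in knockout libraries. The groups did not overlap, with a log2 fold change of 0.43 (SE 0.13) and adjusted p = 0.0785. Its transcript shares 55.3% of its 75-base windows with other genes, Gpx4-ps2 foremost, so its count is uncertain. DESeq2 gave adjusted p = 0.0169 for it.

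Gpx1, the abundant cytosolic peroxidase and the member of this branch with the highest level per length (527 in control and 577 CPM per kilobase in knockout), had 588, 556, 493 and 571 CPM in control and 599, 684, 587 and 546 CPM in knockout libraries, so the groups overlapped (0.13, adjusted p = 0.437). Prdx1, a peroxiredoxin that removes hydrogen peroxide and is a substrate of sulfiredoxin, had 462 ± 27.8 and 517 ± 28.4 CPM (0.16, adjusted p = 0.236). Txn1, thioredoxin itself, had 91.5 ± 9.76 and 98.3 ± 7.34 CPM (0.10, adjusted p = 0.551). Of the 6 members of this branch 6 had log2 fold changes above 0 under TMM scaling, but Txn1 was at −0.01 under total counts alone. Groups did not overlap for Srxn1, Txnrd1 and Gpx4, 3 of 6 in this branch. Over all 37 tested members, every knockout library lay above every control for these same 3, beside 7.17% of all tested genes. Every knockout library lay below every control for 1 of the 37, beside 7.93%.

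**Figure D2:**
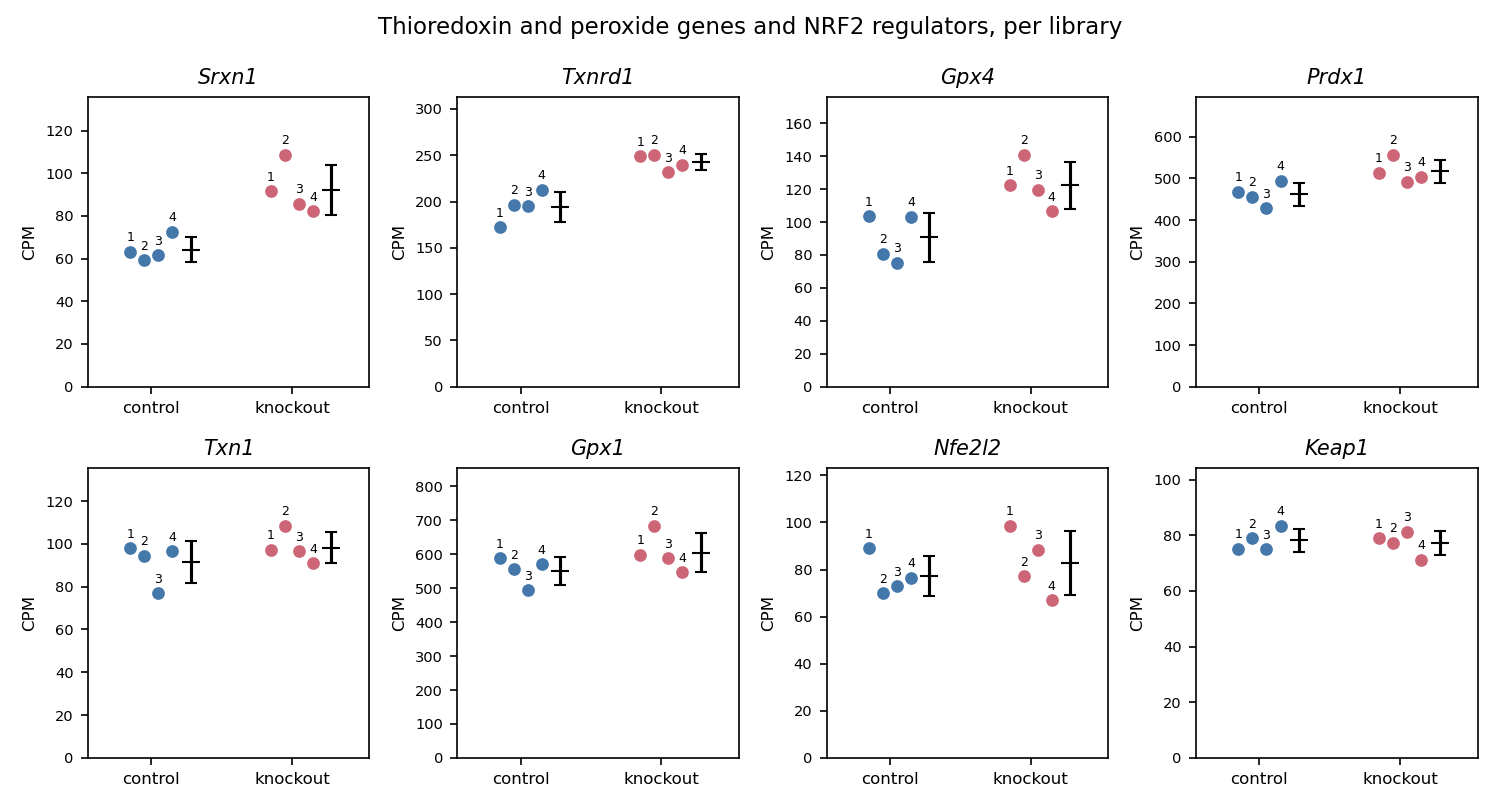
CPM (y axis, from 0) of the 6 thioredoxin and peroxide genes and of Nfe2l2 and Keap1 in each library, with replicate numbers above the points and mean ± SD in black. Knockout points lie above all control points for Srxn1, Txnrd1 and Gpx4, and the groups overlap for the other 5 genes.

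Genes of glutathione supply did not pass the test. Gclc, the catalytic subunit of glutamate-cysteine ligase and the rate-limiting enzyme of glutathione synthesis, led its group at 228 and 266 CPM per kilobase. It had 679, 939.9, 1182 and 512 CPM in control and 1185, 962, 944 and 777 CPM in knockout libraries. The control libraries alone spanned 2.31-fold, wider than the difference between the groups (0.22, 95% interval −0.34 to 0.78, adjusted p = 0.640). Its partner Gclm, the modifier subunit, was far steadier at 174 ± 17.1 and 179.9 ± 4.69 CPM (0.05, −0.13 to 0.22). Gss, glutathione synthetase, had 66.0 ± 5.65 and 64.2 ± 7.55 CPM (−0.04, adjusted p = 0.845), and exons of Acss2 overlap it on the opposite strand. Gsr, the reductase that regenerates glutathione, had 90.8 ± 5.62 and 96.3 ± 7.80 CPM (0.09, adjusted p = 0.562). Slc7a11, the cystine importer and an NRF2 target in many cell types, had 2 to 6 counts in control and 6 to 8 counts in knockout libraries and was not tested.

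The classical NRF2 reporters Nqo1 and Hmox1 did not pass the test. Nqo1, a quinone reductase, had 4.56, 4.84, 4.78 and 6.46 CPM in control and 6.58, 9.12, 6.28 and 4.97 CPM in knockout libraries. Knockout libraries 1 and 2 exceeded all controls, and control library 4 stood apart from the other controls (0.38, 95% interval −0.04 to 0.81, adjusted p = 0.273). Ephx1, microsomal epoxide hydrolase and the most abundant of these enzymes per length, had 486, 536, 634 and 562 CPM in control and 578, 719.7, 537 and 405 CPM in knockout libraries (0.01, adjusted p = 0.968). The knockout values reached above and below the control range.

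Hmox1 encodes haem oxygenase, which macrophages that clear red cells also express. Its control libraries had 12.1, 10.7, 9.88 and 15.4 CPM and its knockout libraries 16.8, 8.82, 9.94 and 15.3 CPM (0.08, 95% interval −0.43 to 0.60, adjusted p = 0.863). Knockout values lay above and below the control range. The 4 libraries with the highest Hmox1, knockout 1 and 4 and control 4 and 1, were also the 4 with the highest macrophage and Kupffer cell marker sums, at 290.2, 360.3, 228 and 218 CPM. The other libraries had sums of 138 to 211 CPM. The part of these cells in the Hmox1 values was not tested. In bulk tissue, fewer cells of a type and less RNA per cell cannot be told apart.

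**Figure D3:**
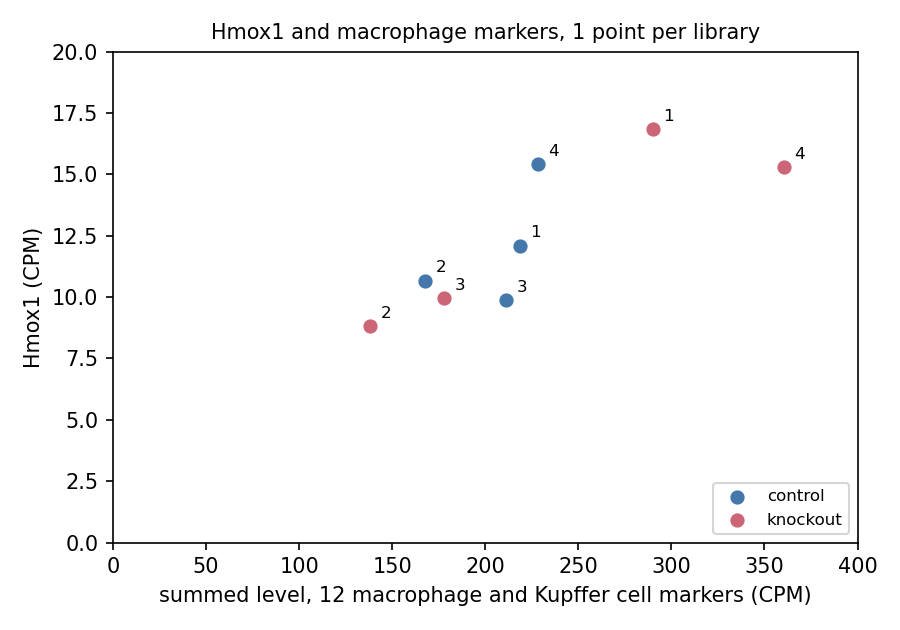
Hmox1 in CPM (y axis) against the summed CPM of 12 macrophage and Kupffer cell markers (x axis), 1 point per library with its replicate number, blue for control and red for knockout. The 4 libraries with sums of 218 CPM or more have Hmox1 of 12.1 to 16.8 CPM, and the other 4 have 8.82 to 10.7 CPM.

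A few transferases were among the most abundant transcripts of these livers, while others, such as Gsta1 at rank 10135 of 25239 genes per length, were not. Summed per length, the 25 genes held 5259.5 ± 264 CPM per kilobase in control and 5409 ± 436 in knockout libraries. That is 1.28% and 1.24% of the length-scaled signal of all genes. Mgst1, Gstp1, Gstm1 and Gsta3 together made up 83.65% of the transferase signal, and by level per length they ranked 33rd, 44th, 59th and 70th of the 25239 genes. In each class of several genes 1 gene held most of the signal. Of the 4 largest classes, microsomal transferases made up 29.9 ± 3.54% of the transferase signal in control and 30.1 ± 1.51% in knockout libraries, pi 23.0 ± 1.69% and 23.8 ± 4.46%, mu 21.3 ± 3.05% and 20.9 ± 1.37%, and alpha 15.4 ± 1.54% and 14.5 ± 1.36%. These 4 differences were smaller than the SD of the control libraries, as were those of zeta and kappa. The theta share, 3.41 ± 0.466% and 3.93 ± 0.672%, and the omega share, 0.938 ± 0.0980% and 0.772 ± 0.0975%, differed by more than that SD, and the shares were not tested.

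**Figure D4:**
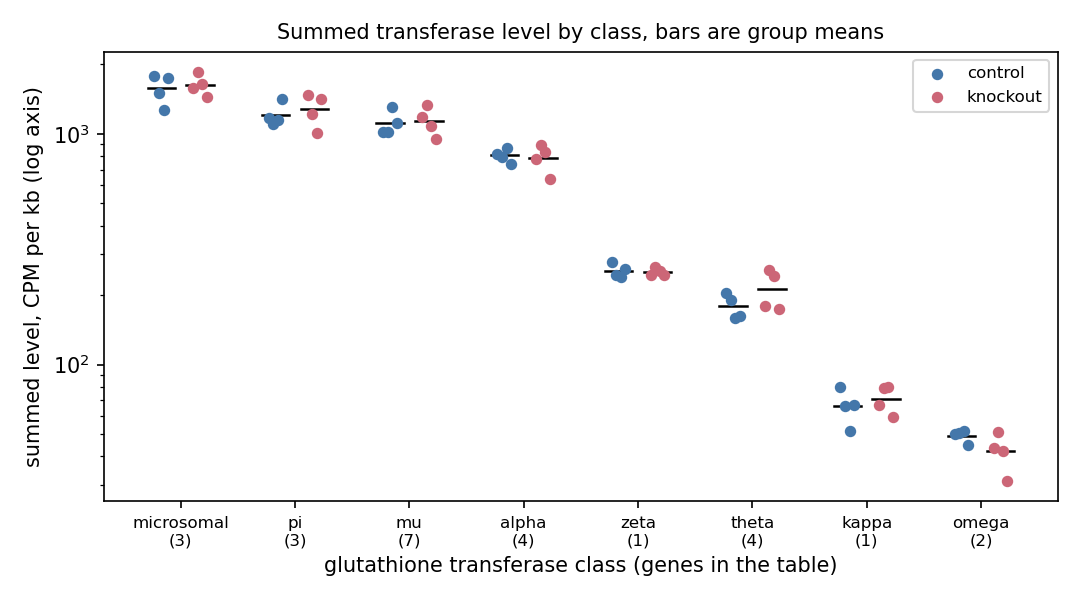
Summed level of each transferase class in CPM per kilobase (y axis, log scale), 1 point per library, blue for control and red for knockout, with bars at the group means and the number of genes under each class name. Control and knockout points overlap in all 8 classes, from the microsomal class at 1576 and 1631 down to omega at 49.2 and 42.0 CPM per kilobase.

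Of the 22 tested transferases 14 had log2 fold changes above 0 and 8 below, with a median of 0.08, where 48.4% of all tested genes were above 0. Under total counts alone 8 were above 0 and 14 below, where 32.4% of all tested genes were above 0. At unadjusted p under 0.05 there were 2 higher (Gsta1 and Gstm2) and 2 lower (Gstp3 and Gstm4), which is 4 of 22 beside the 21.5% of all tested genes. DESeq2 called 2 of the 22 and limma-voom 1, where they called 11.9% and 9.76% of all genes in either direction.

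Mgst1 is a membrane-bound transferase of the endoplasmic reticulum and mitochondria, and it makes up 99.65% of its class. It had 2506, 2101, 1782 and 2444 CPM in control and 2220.1, 2591, 2293 and 2027 CPM in knockout libraries. The ranges overlapped almost fully (0.05, 95% interval −0.23 to 0.32, adjusted p = 0.857). Mgst3 was a minor transcript with 5.49, 4.58, 5.79 and 3.73 CPM in control and 5.37, 12.1, 8.03 and 3.11 CPM in knockout libraries. Knockout library 2 was the highest and library 4 the lowest of all 8, so the log2 fold change of 0.54 had a 95% interval from −0.29 to 1.38 (adjusted p = 0.434). Mgst2, with 0 to 24 counts per library, was not tested.

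The mu class forms a cluster of 7 genes on chromosome 3 (107895821 to 108044894, mm10). Gstm1 held 79.1% of its signal and had 1049.7, 1123, 1468 and 1196 CPM in control and 1286, 1495, 1173 and 974 CPM in knockout libraries (0.03, 95% interval −0.30 to 0.35). The lowest and the highest value were both in knockout libraries. Neighbours in the cluster pointed in different directions. Gstm2 had 38.5 ± 6.60 and 47.3 ± 2.90 CPM (0.30, SE 0.12, adjusted p = 0.172), while Gstm4 had 85.4 ± 10.7 and 71.4 ± 5.94 CPM (−0.26, SE 0.10, adjusted p = 0.173). Gstm4 was lower by total-count scaling (adjusted p = 0.0402). Gstm3 (0.24) and Gstm5 (0.18) were above 0 and Gstm6 (−0.07) and Gstm7 (−0.07) below, with adjusted p from 0.345 to 0.675. Gstm3 shares 21.6% and Gstm1 14.8% of its 75-base windows with related genes and pseudogenes, so their counts are less certain than that of Gstm4, which shares none. Exons of 4933431E20Rik overlap Gstm5 on the opposite strand.

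The pi genes lie together on chromosome 19 (4035407 to 4059569). Gstp1, 98.2% of the class, had 855, 808, 844 and 1032 CPM in control and 1084, 888, 740.4 and 1029 CPM in knockout libraries (0.08, 95% interval −0.21 to 0.37). Gstp3 was the transferase with the lowest adjusted p. It had 7.74, 5.83, 4.53 and 5.89 CPM in control and 4.49, 4.47, 4.43 and 3.86 CPM in knockout libraries. All 4 knockout values lay below the controls, although control library 3 was only just above the highest of them. The log2 fold change was −0.48 (SE 0.16, 95% interval −0.83 to −0.12, adjusted p = 0.114), and no exact copy of 75 bases was found for it. It passed without control replicate 3 (adjusted p = 0.0381), by DESeq2 (0.0438), by limma-voom (0.0428) and under total counts alone (0.0385). Every knockout library lay below every control for 7.93% of all tested genes, and for 1 of the 22 transferases. Gstp2 had 10.4 ± 2.06 and 13.4 ± 4.16 CPM (0.36, adjusted p = 0.388), but 68.2% of its 75-base windows occur in other genes, Gstp1 foremost. In control libraries Gstp1 had 1189 and Gstp2 13.9 CPM per kilobase, so the Gstp2 count is uncertain, and how reads were divided between them was not tested. Gstp1 itself shares 57.7% of its 75-base windows, with Gstp2 foremost, so its level, rank and share of the transferase signal carry the same limit.

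The alpha class was led by Gsta3, which in mice detoxifies aflatoxin epoxide, with 1249, 1211, 1313 and 1145 CPM in control and 1189, 1325, 1255 and 985 CPM in knockout libraries (−0.05, 95% interval −0.27 to 0.18). Gsta1 had the largest fold change of all members and came from a near-silent level. Its control libraries had 0.480, 0.435, 0.637 and 0.443 CPM, and its knockout libraries 0.676, 3.24, 1.34 and 0.473 CPM. Knockout libraries 1, 2 and 3 exceeded every control and library 4 did not, and library 2 alone accounted for most of the mean of 1.43 ± 1.26 CPM. This gave a log2 fold change of 1.51 (SE 0.55, adjusted p = 0.153). Leaving out knockout replicate 2 lowered it to 0.73. Its transcript shares 86.3% of its 75-base windows with Gm3776, Gsta2 and others.

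Gsta2 had 10.3, 10.97, 16.6 and 6.91 CPM in control and 7.06, 16.5, 12.3 and 4.98 CPM in knockout libraries (−0.13, 95% interval −1.05 to 0.80), and 46.9% of its windows are shared. Gsta4, which conjugates the lipid peroxidation product hydroxynonenal and shares none, had 29.3 ± 4.59 and 31.7 ± 10.2 CPM (0.11, adjusted p = 0.817). In all 4 alpha genes knockout library 2 was the highest and library 4 the lowest of the knockout group. This was common among the members, since it held for 18 of the 37 tested, Srxn1, Mgst1 and Ephx1 among them. Library 2 was the highest of the knockout group for 24 members and library 4 the lowest for 24. This order was not counted over all tested genes, so whether it is particular to the members was not tested.

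The theta genes sit on chromosome 10 (75774115 to 75837424). Gstt1 had 169, 162, 126 and 130.0 CPM in control and 154, 212, 201 and 149.9 CPM in knockout libraries (0.29, 95% interval −0.03 to 0.61, adjusted p = 0.2803). Knockout libraries 2 and 3 were above all controls and libraries 1 and 4 among them. Gstt3 was likewise higher in knockout libraries 2 and 3 than in 1 and 4, with 73.3 and 63.9 CPM in libraries 2 and 3 and 34.8 and 39.6 CPM in libraries 1 and 4, which lay below every control (46.9 to 57.3 CPM). Its group means of 50.3 ± 4.82 and 52.9 ± 18.6 CPM thus hid a 2.10-fold span within the knockout (0.07, adjusted p = 0.883). Its count is less certain than those of Gstt1 and Gstt2, because 25.0% of its 75-base windows occur in Gm20441 and theirs occur in no other gene. Gstt2 had 33.3 and 31.6 CPM in knockout libraries 2 and 3, 26.6 and 21.4 CPM in libraries 1 and 4, and 24.4 ± 1.57 CPM in control (0.21, adjusted p = 0.376). Knockout libraries 1 and 4, where these 3 genes were lower, were the ones with the high neutrophil and macrophage marker sums given above. Control libraries 1 and 4 also had the highest control sums (218 and 228 CPM for macrophages, 3.80 and 6.47 CPM for neutrophils). Control library 1 nevertheless held the highest control value of Gstt1 (169 CPM), Gstt3 (57.3 CPM) and Gstt2 (25.7 CPM). Control library 4 had 130.0, 47.4 and 23.9 CPM of these genes. The part of those cells was not tested. Gstt4 had 1 count in a single knockout library and 0 in the other 7, where 3 counts would correspond to 0.0215 to 0.0277 CPM.

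The remaining classes each had 1 expressed gene. Gstz1, which also acts in tyrosine breakdown as maleylacetoacetate isomerase, had 603, 529.7, 519 and 560.0 CPM in control and 529, 571, 551 and 529.7 CPM in knockout libraries (−0.02, 95% interval −0.18 to 0.14), and exons of Pomt2 and Gm6566 overlap it on the opposite strand. Gstk1, a transferase of mitochondria and peroxisomes, had 74.0, 61.3, 47.9 and 62.4 CPM in control and 62.1, 73.5, 74.0 and 55.0 CPM in knockout libraries (0.11, adjusted p = 0.697). Gsto1, which also reduces dehydroascorbate, had 58.8, 59.4, 60.4 and 52.5 CPM in control and 51.2, 59.9, 49.7 and 36.9 CPM in knockout libraries (−0.23, 95% interval −0.51 to 0.06, adjusted p = 0.348). Knockout library 4 was the low value. Gsto2, with 3 to 23 counts per library, was not tested.

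**Figure D5:**
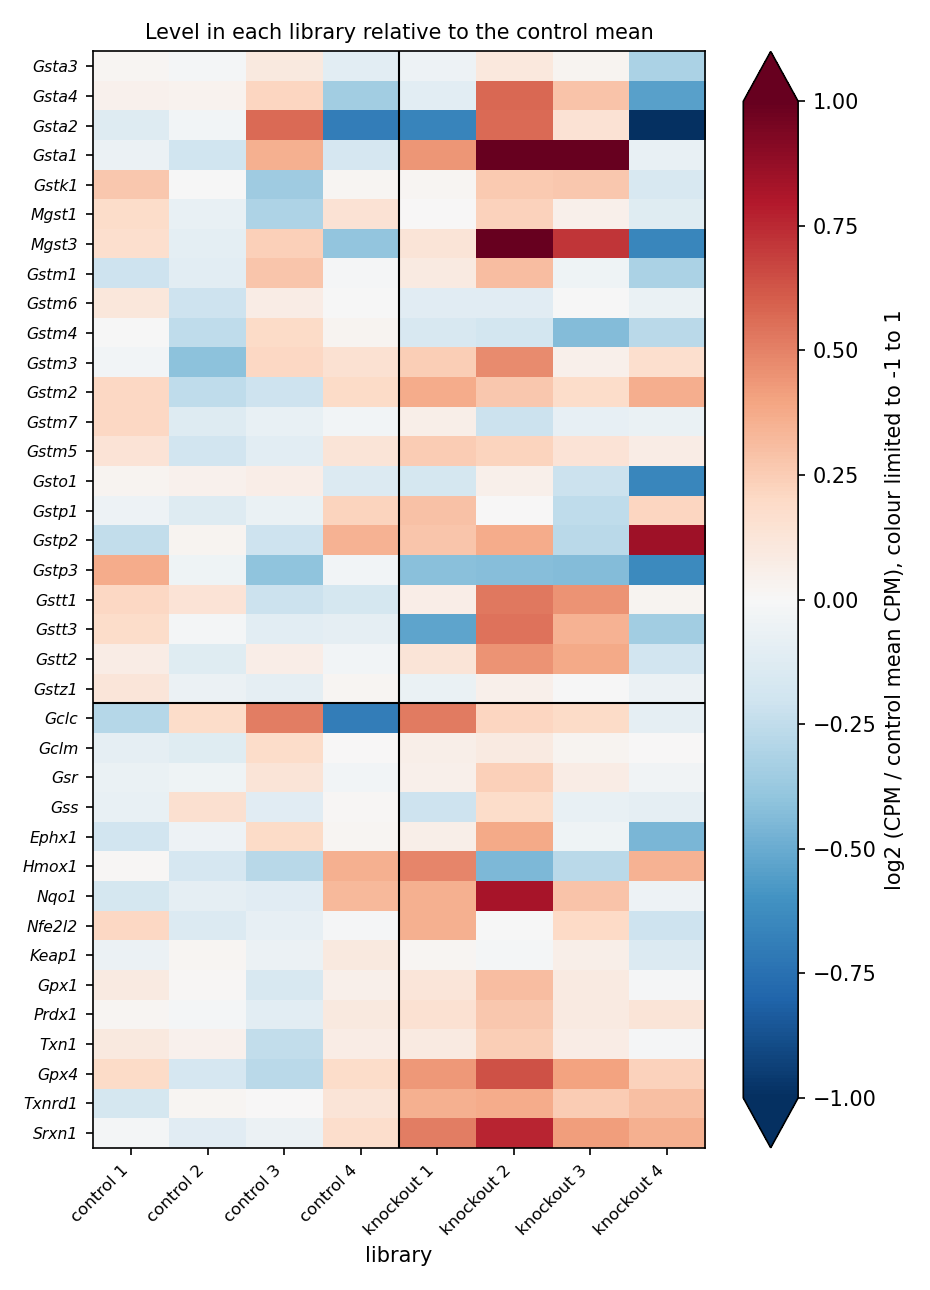
Level of the 37 tested members (rows) in each of the 8 libraries (columns) as log2 of CPM over the control mean, with colour limited to −1 to 1, red higher and blue lower. Transferases are above the horizontal line, where Gsta1, Mgst3 and the theta genes are redder in knockout libraries 2 and 3 than in 1 and 4, and the lowest rows, Gpx4, Txnrd1 and Srxn1, are red in all 4 knockout libraries.

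The spread between libraries set how small a difference could be seen. Of the 37 tested members 24 had a 95% interval that stayed within a 1.5-fold difference in both directions and 34 stayed within 2-fold. Gsta1, Gsta2 and Mgst3 did not stay within 2-fold, and they also had the largest SD of log2 CPM between libraries of a group, at 0.87, 0.66 and 0.62. The median SD was 0.21 over the members and 0.19 over all tested genes, and the steadiest members were Keap1 and Gstz1, both at 0.08.

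ZFP36L1 binds the AU-rich heptamer UAUUUAU, written TATTTAT below, so the members' 3′ untranslated regions were searched for it on the sense strand in the longest annotated version of each (GENCODE M21). It was present in 5 of the 41 members, tested or not (12.2%), and in 29.7% of the 13707 tested genes with such a region. The members' regions were shorter, with a median of 448 bases against 1155, and a longer region holds a short motif more often. The 5 genes were Txnrd1, Nfe2l2, Gclm, Gsr and Gstt2, so 1 of the 2 genes that rose has the motif, and Srxn1, with 2184 bases, has none. Each is shown with 1 match in capitals, because these are the members in which the protein's motif is found. Txnrd1 has 2 overlapping copies and Gstt2 has 4.
Txnrd1: ctgttcagtttTATTTATttattttttaa
Nfe2l2: actacagaactTATTTATactgttctcac
Gclm: aggccaatgttTATTTATgtgtctaaccc
Gsr: tcatttgataaTATTTATaattaatattt
Gstt2: tttttaaaaaaTATTTATttatttattta
The log2 fold changes of these genes were 0.32 for Txnrd1, 0.10 for Nfe2l2, 0.05 for Gclm, 0.09 for Gsr and 0.21 for Gstt2, and only that of Txnrd1 passed the test.

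Further genes of the pathway were taken from a list of 61 genes, of which 59 were tested. Of these 4 rose and 1 fell, beside 3.51% and 1.88% of all tested genes. Log2 fold changes were above 0 for 43 of the 59, with a median of 0.17, beside 48.4% of all tested genes. Under total counts alone 32 were above 0 and 27 below, where 32.4% of all tested genes were above 0. By unadjusted p under 0.05 there were 19 higher and 1 lower, 20 of 59, beside 21.5% of all tested genes. Hagh, glyoxalase II, which releases glutathione from S-lactoylglutathione, had 157, 156, 129 and 152 CPM in control and 230.3, 244, 226 and 210.5 CPM in knockout libraries. The groups were far apart, and the log2 fold change of 0.62 (SE 0.08, adjusted p = 0.00613) passed without any single library and in the other alternative fits. Me1 and G6pdx, which make NADPH, rose as well (1.22 and 1.30, adjusted p = 0.00645 and 0.0271). Me1 went from 591 ± 106 to 1376 ± 239 CPM and G6pdx from 9.47 ± 1.49 to 23.3 ± 9.76 CPM. The G6pdx call was lost when control replicate 1 (0.0597), 2 (0.0739) or 4 (0.0601), or knockout replicate 3 (0.0586), was left out, and exons of Ikbkg overlap it on the opposite strand, as those of A330041J22Rik overlap Me1.

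Cyp2a5, a cytochrome P450 that NRF2 can induce, had 312, 392, 357 and 572 CPM in control and 841, 1072, 776 and 655 CPM in knockout libraries. The groups did not overlap (1.03, SE 0.21, adjusted p = 0.0255), and blocking on the replicate number gave 0.0509. It lost its call without control replicate 1, 2 or 3 or knockout replicate 1, 2 or 3, where adjusted p was 0.0503 to 0.0683. Txnrd3, a thioredoxin reductase best known from testis, was the gene that fell, from 10.7 ± 1.68 to 7.39 ± 0.320 CPM (−0.53, SE 0.12, adjusted p = 0.0349, lost without any 1 library but control replicate 2, at 0.0593 to 0.104). Maff, a small MAF partner of NRF2, had 1.60, 1.62, 1.59 and 2.56 CPM in control and 2.64, 4.97, 2.78 and 4.58 CPM in knockout libraries (1.02, adjusted p = 0.0509, or 0.0195 with the replicate block). DESeq2 called 9 of the list higher and limma-voom 7, where they called 6.97% and 5.6% of all tested genes higher.

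Many transferases also respond to the receptors CAR and PXR, so 15 of their known targets were set beside them. Of 14 tested, 0 rose and 1 fell by edgeR, beside 3.51% and 1.88% of all tested genes. By unadjusted p under 0.05 there were 0 higher and 3 lower, beside 21.5% of all tested genes in either direction. DESeq2 and limma-voom each called 0 higher and 2 lower, where they called 4.97% and 4.16% of all genes lower. Log2 fold changes were above 0 for 6 of the 14 and below for 8, beside 48.4% of all tested genes above 0. The largest was that of Alas1, at 1.72 (95% interval −0.35 to 3.78, adjusted p = 0.314). Total counts alone gave 0 higher and 3 lower (Cyp2c37, Cyp2c50 and Cyp3a13), where 9% of all tested genes were called lower. Cyp2c50 fell from 715 ± 85.9 to 488 ± 37.5 CPM (−0.55, SE 0.10, adjusted p = 0.0170, or 0.0584 without knockout replicate 1). Cyp2c37 had 161 ± 58.5 and 75.5 ± 15.1 CPM (−1.09, adjusted p = 0.0573, or 0.00944 with the replicate block). That block called 2 of the list lower, beside 2.52% of all tested genes. The CAR target Cyp2b10 had 8.26, 5.59, 10.5 and 3.48 CPM in control and 18.2, 19.1, 16.8 and 4.01 CPM in knockout libraries, so knockout library 4 stayed in the control range (1.06, adjusted p = 0.290).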

How the data were processed

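Liver RNA of 8 samples was sequenced, and the authors deposited raw counts for each gene symbol in 1 table with a column per library. Columns were matched by the library code in each sample's description, and groups were taken from the titles. The table's gene length column, in bases, per the file headers, was used for levels per kilobase. The genome build is mm10 per the submitters' processing notes. Aligner, counter, annotation, strand setting and read length: not given in the sources used here. Low counts were mostly even (67.4% to 70.8% of values from 1 to 20), so counts divided by 2 were an alternative.

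Genes were filtered with filterByExpr (14861 of 25239 kept), scaled by TMM and tested in R 4.3.3 with edgeR 4.0.16 (robust quasi-likelihood), and p-values were adjusted by Benjamini-Hochberg at 0.05. The SE, an approximation, is the size of the log2 fold change over the root of F, and the 95% intervals were made from it. Alternatives were other scalings and filters, DESeq2 1.42.0, limma 3.58.1 (voom with quality weights), a replicate block and leaving out each library. The fits were tested on simulated data. Same-numbered libraries deviated together from their group means (correlations 0.17, 0.39, 0.31 and 0.40), and the labels do not say what a number marks.

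The members, lists and alternatives were chosen with earlier results of these data known. By rule, values in each library were given for members past the threshold, members with a log2 fold change of at least 0.5 in size and 1 CPM in the higher group, Nfe2l2, Keap1, and the member highest per length in each class or role. Other genes given by library, the 75-base window and the second promoter motif were chosen after the data were seen. Positions, 3′ untranslated regions and overlaps came from GENCODE M21 (GRCm38) by symbol, which matched all 41 members, and promoter windows from RefSeq GRCm38.p6, which matched 36. Protein identity between transferases was not analysed here. The floor of 3 counts covers counting error only.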

Additional observations from a re-analysis of the deposited data

Results flagged for a closer look

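Of 76 groups of 4 libraries checked, the members and Zfp36l1 in control and in knockout, 2 had a library that stood apart by Dixon's criterion (the gap to the nearest library over the group's range, at the 95% level), and chance flags about 1 in 20. Nqo1 was 6.46 CPM in control replicate 4, while the other controls were at 4.56 to 4.84 CPM. Gstp3 was 3.86 CPM in knockout replicate 4, while the other knockout libraries were at 4.43 to 4.49 CPM.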

How the results depend on the processing

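Low counts kept 4 members untested, and for the 37 tested the precision is that of the intervals between libraries. Zfp36l1, Hagh and Me1 kept their direction and call in all 16 alternatives. DESeq2 called 1014 genes higher and 724 lower, with 4 members higher and 1 lower and 9 other pathway genes higher. Limma-voom called 832 higher and 618 lower, with 1 member lower and 7 other pathway genes higher. Total counts alone called 1338 genes lower, with 1 member higher and 2 lower. Without 1 library, genes called higher ranged from 169 to 583 and lower from 42 to 384, the fewest in both cases without knockout replicate 3. Members higher ranged from 0 to 2 and lower from 0 to 1, and other pathway genes higher from 2 to 6 and lower from 0 to 1. Such fits hold fewer libraries. For the others the cause was not tested.

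The replicate block left the members' calls at 2 higher and 0 lower, changed those of Cyp2a5, Maff and Cyp2c37 and of the markers Lyve1 and Ttr, and moved Ephx1 to −0.0090 (log2). Log2 fold changes near 0 changed sign under total counts alone, to −0.10 for Ephx1, −0.069 for Gclm, −0.029 for Gsr, −0.0038 for Gsta4, −0.0025 for Gstk1, −0.090 for Gstm1, −0.034 for Gstp1, −0.038 for Gstt3, −0.029 for Hmox1, −0.063 for Mgst1, −0.011 for Nfe2l2 and −0.0089 for Txn1. Under limma-voom they changed to −0.074 for Gstt3, 0.0065 for Keap1 and −0.035 for Mgst1. Without 1 library the range crossed 0 for Ephx1 (−0.13 to 0.14), Gss (−0.12 to 0.022), Gsta2 (−0.46 to 0.12), Gsta3 (−0.10 to 0.033), Gsta4 (−0.083 to 0.28), Gstm1 (−0.080 to 0.13), Gstm7 (−0.12 to 0.0036), Gstt3 (−0.13 to 0.23), Gstz1 (−0.046 to 0.026), Hmox1 (−0.077 to 0.23), Keap1 (−0.043 to 0.021) and Mgst1 (−0.040 to 0.12). The stricter filter left out Gsta1 and Gstm5, which have no value there.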
